A study of Gallus gallus with 12 samples.

Results

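SESN1, RICTOR, RB1CC1 and TMEM106B are 4 genes of nutrient sensing, autophagy and the lysosome, out of 2253 genes named on a spotted chicken cDNA array, and they were followed in HTC cells, a chicken macrophage line, during contact with Eimeria. They were taken by symbol from the annotation of the array, where each was carried by 1 clone printed as 3 spots, 12 of the 14718 spots in all. The RNAs were taken from cells without parasites, called unstimulated, and from cells kept with the coccidian parasites E. tenella, E. maxima or E. acervulina for 4, 18 or 48 h, which gave 1 RNA per species and time, counting the unstimulated RNA separately for each species. Each of 12 arrays compared a pair of RNAs of one species, carrying Alexa555 and Alexa647. Together the 4 arrays of a species closed a loop through unstimulated, 4 h, 18 h and 48 h RNA, so no array set 18 h RNA directly against unstimulated RNA.

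The genes were chosen by measured values at 48 h: RICTOR, RB1CC1 and TMEM106B for a higher level at 48 h than in unstimulated cells over the 3 species, and SESN1 for its level at 48 h in E. maxima cultures. Their changes against unstimulated RNA are therefore given as a description, without a test. No unstimulated cells of a later time are named in the labels, so the parasite and the hours in culture cannot be told apart. The unstimulated RNA carries one name in all loops and may be a single RNA. In RNA from a whole culture, fewer cells of a kind and less RNA per cell cannot be told apart.

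Macroautophagy, the delivery of cytoplasm and of some intracellular microbes to the lysosome, starts at the ULK1 kinase complex. That complex is held back by the kinase complex mTORC1 when amino acids are plentiful. Sestrins lower mTORC1 activity when leucine is scarce or the cell is stressed, mTORC2 is a second complex of the same kinase that acts on AKT and related kinases, and lysosomes both receive the autophagosome and carry mTORC1 on their surface. These roles are known mainly from mammals.

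Values are log2 ratios as the authors deposited them, with base 2 assumed. Which dye was the numerator is not stated in the labels or the table. Alexa555 over Alexa647 is used as the likely reading, a choice made with the values known and on a weak basis: every sample title names the Alexa555 RNA first, and several chemokine genes then take the sign the study is recalled to have reported. The opposite reading would turn each sign in what follows, with higher becoming lower. From the 4 arrays of a loop a level for each RNA was estimated by least squares, relative to the mean of that loop, in which a constant dye effect cancels. Such levels compare RNAs for one gene and cannot be compared between genes. All 4 genes had a value on all 12 arrays, with 33 to 35 of the 36 possible spot values for each.

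RB1CC1 encodes FIP200, the scaffold of the ULK1 complex. Its level relative to the loop mean in the E. tenella loop was -0.36 in unstimulated cells, -0.34 at 4 h, 0.24 at 18 h and 0.46 at 48 h. In the E. maxima loop it was -0.69, -0.25, 0.25 and 0.69 at the same points. In the E. acervulina loop it was -0.13, -0.08, 0.01 and 0.20. In these solved levels RB1CC1 stood higher at each later time in every loop, and it was the only one of the 4 genes to do so. Its solved step from unstimulated to 4 h was 0.03 with E. tenella and 0.05 with E. acervulina. Both were below its single array error of 0.09, given below. The direct arrays of that step, with the dye effect left in, read -0.14 with E. tenella, 0.54 with E. maxima and -0.03 with E. acervulina. The same order in all 3 loops was held by 5 of 3700 tested features, or 0.135%, but it includes 48 h above unstimulated, by which RB1CC1 was chosen, and nothing is read from that share. The 3 levels at 48 h, from 0.20 to 0.69, lay above the 3 unstimulated levels, from -0.69 to -0.13. How many of all features were parted in this way was not counted. By another measure, a limma test of 48 h against unstimulated RNA, 3.59% of the 3700 features passed at an adjusted p of 0.05. Because the choice of RB1CC1 used that contrast, nothing is read from its place there.

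Against unstimulated RNA, RB1CC1 was higher by 0.17 ± 0.23 at 4 h, 0.56 ± 0.40 at 18 h and 0.85 ± 0.52 at 48 h (log2 change, SD, n = 3 species). The change at 48 h was 0.82 with E. tenella, 1.38 with E. maxima and 0.34 with E. acervulina. Leaving out E. maxima put the mean at 0.58 at 48 h and at 0.37 at 18 h. At 4 h the mean was 0.04 without E. maxima. On the arrays that compared 48 h with unstimulated RNA directly, the E. maxima spots read 1.47, 1.29 and 1.07 for 48 h over unstimulated, the E. acervulina spots 0.65, 0.28 and 0.33, and the 2 E. tenella spots with a value 0.94 and 1.05. Every one of these spots was higher at 48 h. Smaller steps were less even over the spots, as on the E. acervulina array of 18 h over 4 h, where they read 0.15, 0.05 and -0.18 and differed in sign.

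TMEM106B encodes a lysosomal membrane glycoprotein that affects lysosome acidification, size and movement. Its level in the E. tenella loop was -0.31 in unstimulated cells, -0.02 at 4 h, 0.21 at 18 h and 0.12 at 48 h. In the E. maxima loop it was -0.72, -0.16, 0.36 and 0.52. In the E. acervulina loop it was -0.72, 0.24, 0.09 and 0.39. The unstimulated level was the lowest of the 4 in each loop, and by 4 h TMEM106B was higher with all 3 species. The choice of TMEM106B used the same unstimulated RNA. The share of all features with this pattern was not counted, and nothing is read from it.

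The change of TMEM106B against unstimulated RNA was 0.60 ± 0.34 at 4 h, 0.80 ± 0.28 at 18 h and 0.93 ± 0.43 at 48 h (SD, n = 3 species). At 4 h it was 0.29 with E. tenella, 0.56 with E. maxima and 0.96 with E. acervulina, the largest mean among the 4 genes at that time. The later steps were small, at 0.20 ± 0.34 for 18 h over 4 h and 0.12 ± 0.20 for 48 h over 18 h, and neither was larger than its spread over species. On the direct arrays the 3 E. acervulina spots read 1.17, 1.22 and 1.24 for 48 h over unstimulated and the 3 E. maxima spots 1.14, 1.04 and 1.04. The 2 E. tenella spots with a value read 0.58 and 0.53. On these arrays the spots of one array differed by less than the species did. They spread more on the 4 h over unstimulated arrays, at 0.29, 0.27 and -0.07 with E. tenella and at 1.18, 0.70 and 0.70 with E. acervulina.

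RICTOR encodes the subunit that defines mTORC2. Its level in the E. tenella loop was -0.22 in unstimulated cells, -0.26 at 4 h, -0.15 at 18 h and 0.62 at 48 h. In the E. maxima loop it was -0.64, -0.17, 0.45 and 0.36. In the E. acervulina loop it was -0.18, -0.39, -0.03 and 0.60. The timing therefore differed between loops: RICTOR was high with E. maxima already at 18 h, whereas with E. tenella and E. acervulina only the 48 h level stood above the loop mean.

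Against unstimulated RNA, RICTOR changed by 0.07 ± 0.35 at 4 h, 0.43 ± 0.56 at 18 h and 0.87 ± 0.11 at 48 h (SD, n = 3 species). At 48 h its change was 0.84 with E. tenella, 0.998 with E. maxima and 0.78 with E. acervulina, the narrowest spread over species of the 4 genes. RICTOR was chosen by this change, and the error of a single array, given below, was 0.23 for RICTOR. Nothing is therefore read from the narrow spread. At 18 h the mean rested on E. maxima, at 1.08 against 0.07 with E. tenella and 0.15 with E. acervulina, and it was 0.11 without E. maxima. At 4 h its sign varied with the species, and leaving out E. maxima gave a mean of -0.12, leaving out E. tenella 0.13 and leaving out E. acervulina 0.21. The dye effect of RICTOR estimated from the loops was 0.35, as Alexa555 over Alexa647. The 48 h over unstimulated arrays read 1.07 in the E. tenella loop, 0.63 in the E. maxima loop and 1.24 in the E. acervulina loop before the loops were solved, and the E. maxima loop was hybridised in the opposite dye order.

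SESN1 encodes sestrin 1, a stress-responsive inhibitor of mTORC1 and, in mammals, a target of p53. Its level in the E. tenella loop was -0.35 in unstimulated cells, -0.43 at 4 h, 0.41 at 18 h and 0.37 at 48 h. In the E. maxima loop it was -1.18, -0.67, 0.61 and 1.24. In the E. acervulina loop it was -0.22, 0.16, -0.08 and 0.14. SESN1 had the widest range of the 4 genes in the E. maxima loop and the narrowest in the E. acervulina loop after RB1CC1.

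The change of SESN1 against unstimulated RNA was 0.27 ± 0.32 at 4 h, 0.90 ± 0.84 at 18 h and 1.17 ± 1.11 at 48 h (SD, n = 3 species). At 48 h it was 0.72 with E. tenella, 2.43 with E. maxima and 0.36 with E. acervulina, and without E. maxima the mean was 0.54. At 18 h it was 0.754, 1.795 and 0.136 in the same order, and 0.45 without E. maxima. At 4 h the mean was 0.45 without E. tenella and 0.14 without E. maxima. The E. maxima culture thus set the size of the mean at 18 and 48 h. SESN1 was chosen by its level at 48 h in that culture, so nothing is read from this. Before the loop was solved, the E. maxima arrays read 1.65 for 48 h and 1.30 for 4 h over unstimulated RNA. The solved values were 2.43 and 0.52. Solving spreads the sum of that loop, 3.12 as given below, evenly over its arrays as a dye effect. Array error in the sum therefore enters the solved values.

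The spots of SESN1 disagreed on arrays of the E. maxima loop. On the E. maxima array of 48 h over unstimulated RNA they read 2.13, 2.42 and 0.39, and on that of 18 h over 4 h RNA 2.29, 2.74 and 1.14. The third spot was the low one on both. Solved on its own, the second spot gave a loop change of 3.12 at 48 h and the third spot 1.34. On the direct E. tenella array the 3 spots read 0.14, 0.90 and 1.69, and on the E. acervulina array 1.09, 0.43 and 0.22. On these direct arrays all spots of SESN1 were higher at 48 h, with sizes that varied several-fold between copies of one clone. Solved over the loop, the E. acervulina spots gave changes at 48 h of 0.85, 0.23 and -0.004, so the third spot showed no increase there.

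**Figure D1:**
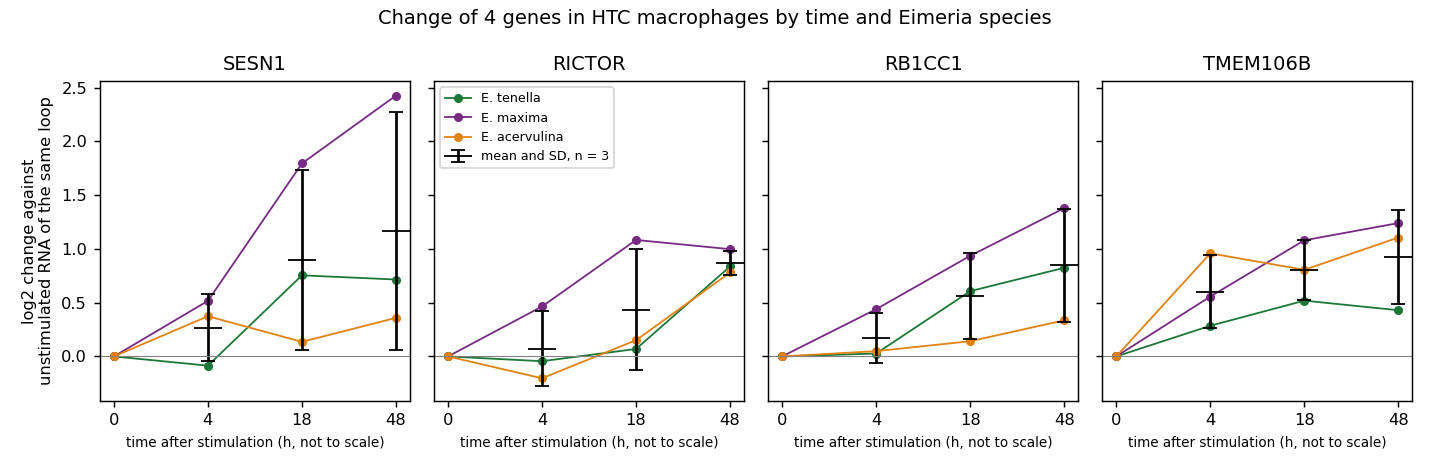
Log2 change (vertical axis) of SESN1, RICTOR, RB1CC1 and TMEM106B against the unstimulated RNA of the same loop at 0, 4, 18 and 48 h (horizontal axis, not to scale), with a line for each Eimeria species, a black dash for the mean and a bar for the SD over n = 3 species. RICTOR, chosen for a higher level at 48 h over the 3 species, ends with them together, between 0.78 and 0.998 in the solved values. SESN1, chosen by its level with E. maxima at 48 h, ends with that species apart at a solved 2.43, where the direct array read 1.65.

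**Figure D2:**
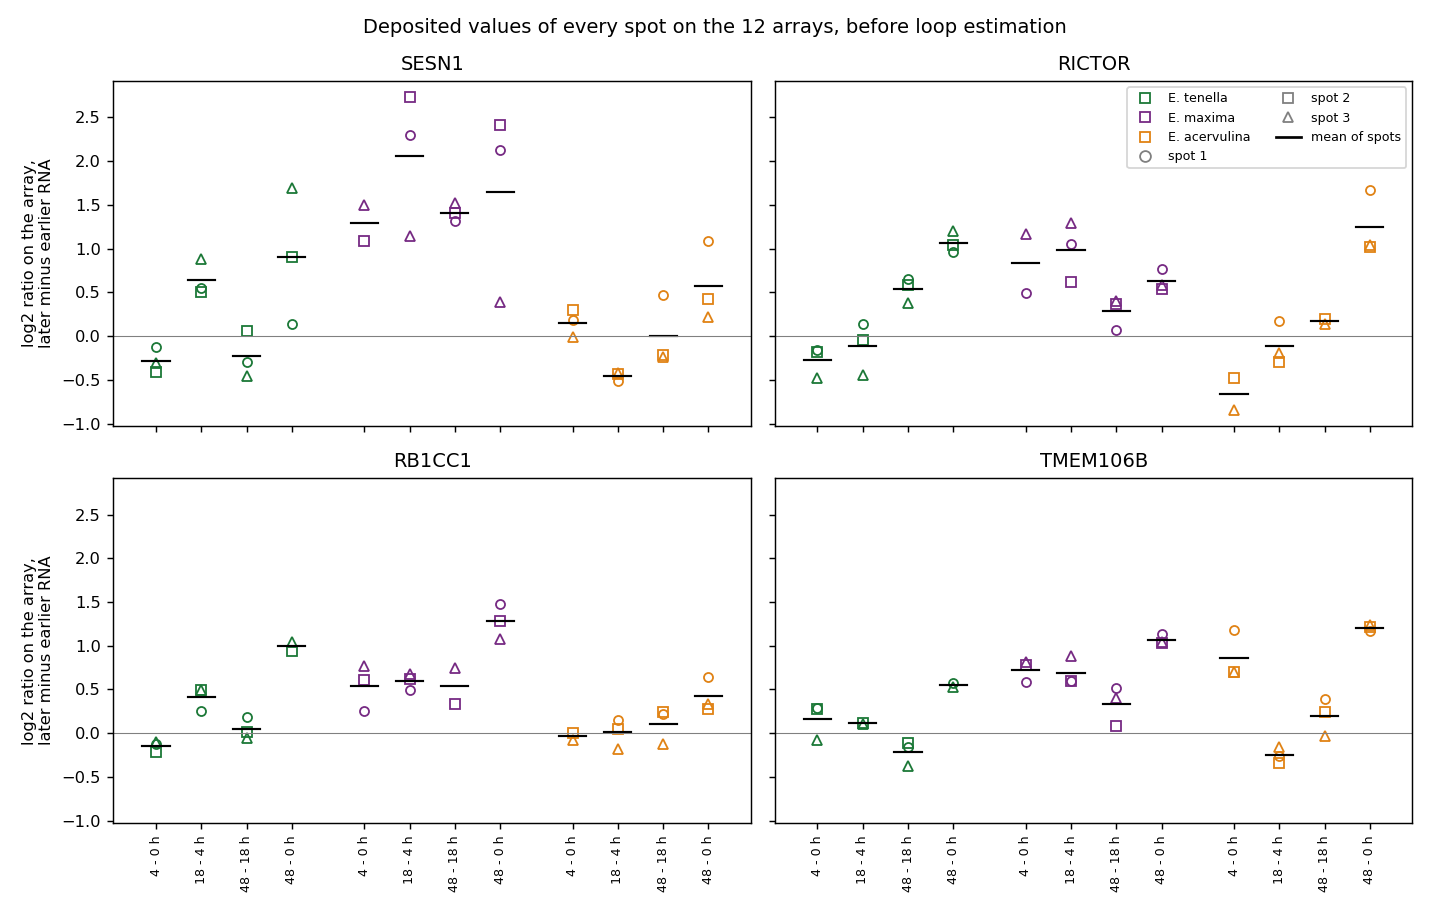
Deposited log2 ratio of each of the 3 spots (circle, square, triangle) on the 12 arrays, turned so that a positive value means more RNA at the later time, with a black dash for the mean of the spots. SESN1 spots spread from 0.39 to 2.42 on the E. maxima array of 48 h against unstimulated RNA, while TMEM106B spots on the same array lie between 1.04 and 1.14.

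The median SD between spots of one array was 0.13 for TMEM106B, 0.15 for RB1CC1, 0.21 for RICTOR and 0.28 for SESN1. A loop's 4 arrays, read round in one direction, sum to 4 times the dye effect plus array error. For SESN1 that sum was 0.77 in the E. tenella loop, 3.12 in the E. maxima loop and 0.87 in the E. acervulina loop. The E. maxima sum stood apart from the other two, and the median absolute sum over all features was 0.38, 0.48 and 0.38 in the 3 loops. From the spread of the 3 sums, the error of a single array was 0.66 for SESN1, 0.23 for RICTOR, 0.09 for RB1CC1 and 0.07 for TMEM106B. The values of SESN1 are therefore the least precise of the 4, and those of TMEM106B and RB1CC1 the most precise.

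In the mean over species each of the 4 genes had its lowest level in unstimulated cells, followed by 4 h, 18 h and 48 h. This order was held by 231 of 3700 features, or 6.24%. The choice of the genes fixed the ends of that order for 48 h over unstimulated RNA, and nothing is read from the share. Between neighbours in the order, no step of SESN1 was larger than its SD over species, at 0.27 ± 0.32 for 4 h over unstimulated RNA, 0.63 ± 0.78 for 18 h over 4 h and 0.27 ± 0.34 for 48 h over 18 h. The same was true of RICTOR at 4 h over unstimulated RNA, of RICTOR at 48 h over 18 h, at 0.44 ± 0.46, and of RB1CC1 at 4 h over unstimulated RNA. In the solved values the step of RB1CC1 at 48 h over 18 h, 0.29 ± 0.14, had the same sign in all 3 species. On the direct arrays it read 0.05 with E. tenella, 0.54 with E. maxima and 0.11 with E. acervulina. Its spots differed in sign with E. tenella and with E. acervulina. RB1CC1 was chosen by its 48 h level and the share of all features with this pattern was not counted, so nothing is read from it.

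**Figure D3:**
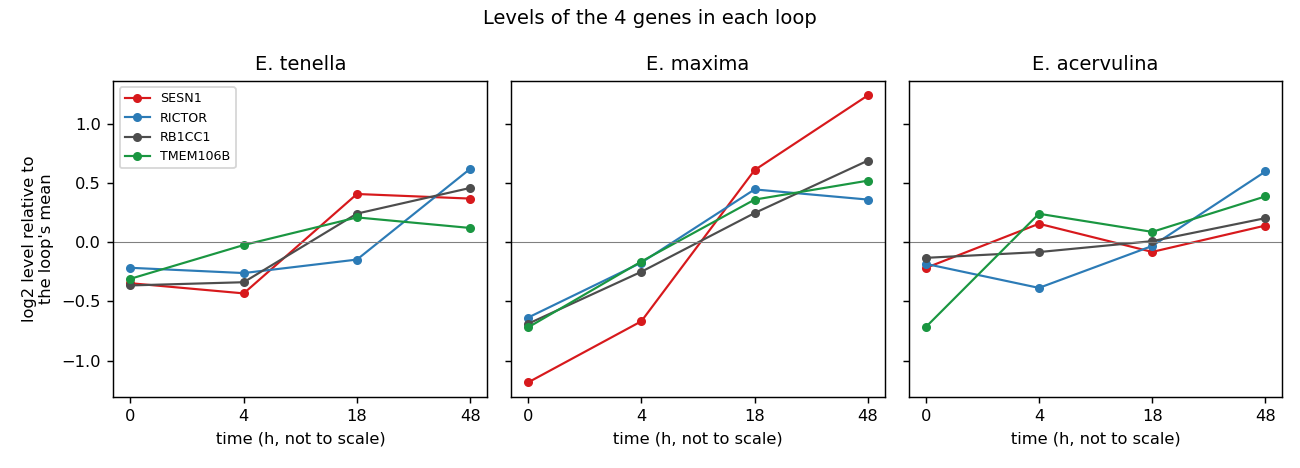
Log2 level (vertical axis) of the 4 genes relative to the mean of their loop, by time (horizontal axis, not to scale), in a panel for each species. With E. maxima all 4 genes lie at -0.64 or lower in unstimulated cells and at 0.25 or higher at 18 and 48 h, and with E. acervulina RB1CC1 and SESN1 stay between -0.22 and 0.20.

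The contrast of 18 h with 4 h is not the one by which the genes were chosen, and it was tested. Its solved values still draw in part on the other arrays of a loop, those with 48 h and unstimulated RNA included. SESN1 was higher at 18 h by 0.63 (95% interval -0.21 to 1.46), RB1CC1 by 0.39 (-0.01 to 0.79), RICTOR by 0.36 (-0.06 to 0.78) and TMEM106B by 0.20 (-0.18 to 0.59). None passed limma with Benjamini-Hochberg adjustment over 3700 features, with adjusted p = 0.52 for SESN1, 0.38 for RB1CC1, 0.44 for RICTOR and 0.68 for TMEM106B. The unadjusted p was 0.12 for SESN1, 0.054 for RB1CC1, 0.082 for RICTOR and 0.27 for TMEM106B, so 0 of the 4 lay under 0.05, against 13.4% of all features. Without E. maxima the step was 0.30 for SESN1, 0.23 for RICTOR and 0.04 for TMEM106B, and without E. acervulina it was 1.06 for SESN1 and 0.38 for TMEM106B. In the solved values RB1CC1 and RICTOR were higher at 18 h in all 3 species, as were 880 of 3700 features, or 23.8%, and SESN1 and TMEM106B in 2 of them, with E. acervulina the exception for both. A single feature of 3700, or 0.027%, passed in this contrast.

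The 3 arrays that set 18 h directly against 4 h RNA involve neither 48 h nor unstimulated RNA, but leave the dye effect in. For RICTOR they read -0.12 with E. tenella, 0.99 with E. maxima and -0.11 with E. acervulina. With E. tenella and E. acervulina 4 h RNA carried Alexa555, and with E. maxima 18 h RNA did. The solved values, 0.11, 0.62 and 0.35, differ from these readings by the dye effect estimated from each loop. For RB1CC1 the 3 arrays read 0.41 with E. tenella, 0.60 with E. maxima and 0.009 with E. acervulina. Tested on these arrays alone, a fit added after the data were seen, the means were 0.75 for SESN1, 0.25 for RICTOR, 0.34 for RB1CC1 and 0.18 for TMEM106B. By limma the adjusted p was 0.67 for SESN1, 0.80 for RICTOR, 0.56 for RB1CC1 and 0.82 for TMEM106B, and 0 of 3700 features passed, with 348 at an unadjusted p under 0.05.

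The species were set side by side in the mean of the 3 stimulated times over unstimulated RNA. RB1CC1 was higher by 0.49 with E. tenella, 0.92 with E. maxima and 0.18 with E. acervulina. For RICTOR these means were 0.29, 0.85 and 0.24, and for TMEM106B 0.41, 0.96 and 0.96. RB1CC1 and RICTOR were thus highest with E. maxima, and TMEM106B lowest with E. tenella. SESN1 had means of 0.46, 1.58 and 0.29. These means include the 48 h changes by which the genes were chosen, so they are a description, and no test of the difference between species is given for the 4 genes. Over all features, 3.76% passed a limma F test on the 9 changes with Benjamini-Hochberg adjustment. That test leaves the spread of the unstimulated RNA out of its error, and 0% passed with an interaction term in the fit to 12 levels, with 113 features at an unadjusted p under 0.05.

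Other genes of the pathway lay on both sides of 0 at 48 h. Lists of 147 other genes of autophagy, mTOR signalling and the lysosome were searched, of which 39 were on the array and all 39 were tested. At 4 h ATP6V0D2 rose and BNIP3 fell, 5.13% of the 39 against 10.4% of all features, of which 4.51% rose and 5.89% fell. Neither gene passed limma without E. maxima (adjusted p = 0.20 for ATP6V0D2 and 0.12 for BNIP3) or without E. acervulina (0.14 and 0.13). In those fits 1 and 0 of all features passed at 4 h, so they say nothing particular to these genes. BNIP3 did not pass without E. tenella (0.058), where 76 of all features did. With the unstimulated RNA as 1 sample neither gene passed, but that fit has a single unstimulated level and nothing is read from it. At both later times limma with Benjamini-Hochberg adjustment called 0 of 39, against 1.62% of all features at 18 h and 3.59% at 48 h, with 9 genes at 18 h and 13 at 48 h at an unadjusted p under 0.05. These were 23.1% and 33.3% of the 39, against 26.7% and 25.6% of all features. All features include single spots without a symbol of their own, whereas list genes are averages over spots, so such shares are not strictly alike. The median change of the 39 was 0.06 at 4 h, 0.05 at 18 h and -0.02 at 48 h, and that of all features -0.03, -0.003 and -0.03. At 48 h 17 of the 39 had a positive change. Fitted without the species block, 9 of the 39 were called at 4 h, 5 at 18 h and 7 at 48 h, or 23.1%, 12.8% and 17.9%, against 23.5%, 17.8% and 16.5% of all features in that fit. That fit counts too many degrees of freedom, as levels are already centred in each loop. List genes named here that did not pass the threshold were picked for their role or the size of their change after their values were seen.

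Other autophagy initiation genes were represented by WIPI2, which binds the lipid that marks the forming autophagosome, and VMP1, an endoplasmic reticulum protein needed at the same step. WIPI2 changed by 0.70 with E. tenella, 0.71 with E. maxima and 0.20 with E. acervulina at 48 h, a mean of 0.54 ± 0.29 with adjusted p = 0.067 by limma. VMP1 changed by -0.17 ± 0.36 at 48 h. WIPI2 was higher with every species, whereas VMP1 varied in sign.

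Among 9 conjugation and cargo genes, BNIP3, a mitochondrial outer membrane protein that acts as a mitophagy receptor and is induced by hypoxia, fell at 4 h, at -0.81 with E. tenella, -1.05 with E. maxima and -0.57 with E. acervulina (mean -0.81 ± 0.24, limma adjusted p = 0.0096). SQSTM1, or p62, which carries ubiquitinated cargo to the autophagosome, is one of these. It changed by 1.42 with E. tenella, 0.74 with E. maxima and 0.45 with E. acervulina at 48 h, a mean of 0.87 ± 0.50 with adjusted p = 0.068 by limma. The cargo receptor gene TAX1BP1 averaged 0.60 ± 0.50 at 48 h (adjusted p = 0.095 by limma). Both were positive with every species at 48 h and missed the threshold. MAP1LC3B, which encodes the LC3 protein of the autophagosome membrane, averaged 0.003 ± 0.15 at 48 h.

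The partners of RICTOR were measured through MTOR, the kinase itself, MAPKAP1, which encodes the mTORC2 subunit SIN1, and PRR5, which encodes another mTORC2 subunit. At 48 h MTOR averaged -0.01 ± 0.22, MAPKAP1 -0.03 ± 0.07 and PRR5 0.03 ± 0.26, against 0.87 ± 0.11 for RICTOR. At 18 h PRR5 averaged 0.62 ± 0.14, with adjusted p = 0.062 by limma, and MTOR -0.04 ± 0.21. RHEB, the small GTPase that switches on mTORC1, averaged -0.29 ± 0.24 at 48 h. No gene of this list of 4 passed limma at any time, with 1 at an unadjusted p under 0.05 at 4 h, 1 at 18 h and 0 at 48 h. Of all features 10.4%, 1.62% and 3.59% passed at these times, and 29.2%, 26.7% and 25.6% had an unadjusted p under 0.05. With 4 genes, nothing particular to the list is read from these counts. RICTOR was chosen by its change at 48 h, and the difference between it and its partners was not tested.

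Amino acid sensing, the pathway of sestrins, was covered by 7 genes, none of which passed limma, with 2, 3 and 4 at an unadjusted p under 0.05 at 4, 18 and 48 h, where 29.2%, 26.7% and 25.6% of all features lay. SLC7A5, which encodes the leucine carrier LAT1, averaged 0.89 ± 0.30 at 18 h, the widest change of the list there (adjusted p = 0.062 by limma). NPRL2, a subunit of the GATOR1 brake on mTORC1, averaged 0.46 ± 0.10 at 18 h (adjusted p = 0.061 by limma). SLC38A9, the lysosomal arginine sensor, averaged -0.31 ± 0.21 at 48 h, with a median of -0.02 for the list at that time. The 5 energy and stress sensing genes and the 2 kinase genes SGK1 and SGK3 downstream of mTORC2 gave no call, with changes from -0.31 to 0.42 at 48 h. Of all features 10.4% were called at 4 h, 1.62% at 18 h and 3.59% at 48 h, so lists this short would show few calls in any case.

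Of 10 lysosome genes ATP6V0D2, which encodes part of the membrane sector of the vacuolar ATPase, rose at 4 h, by 1.65 with E. tenella, 2.11 with E. maxima and 1.07 with E. acervulina (mean 1.61 ± 0.52, limma adjusted p = 0.026). Its mean was 1.62 ± 0.54 at 18 h and 1.32 ± 1.06 at 48 h, with adjusted p = 0.056 and 0.074 by limma. The lysosomal membrane genes LAMP1 and LAMP2 averaged -0.02 ± 0.31 and -0.02 ± 0.25 at 48 h, beside 0.93 ± 0.43 for TMEM106B. TMEM106B was chosen by its change at 48 h, and the difference was not tested. TFEB, a transcription factor of lysosome and autophagy genes, averaged -0.28 ± 0.13 at 4 h and -0.07 ± 0.12 at 48 h. The list's median was -0.02 at 48 h, with 4 of 10 genes positive.

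**Figure D4:**
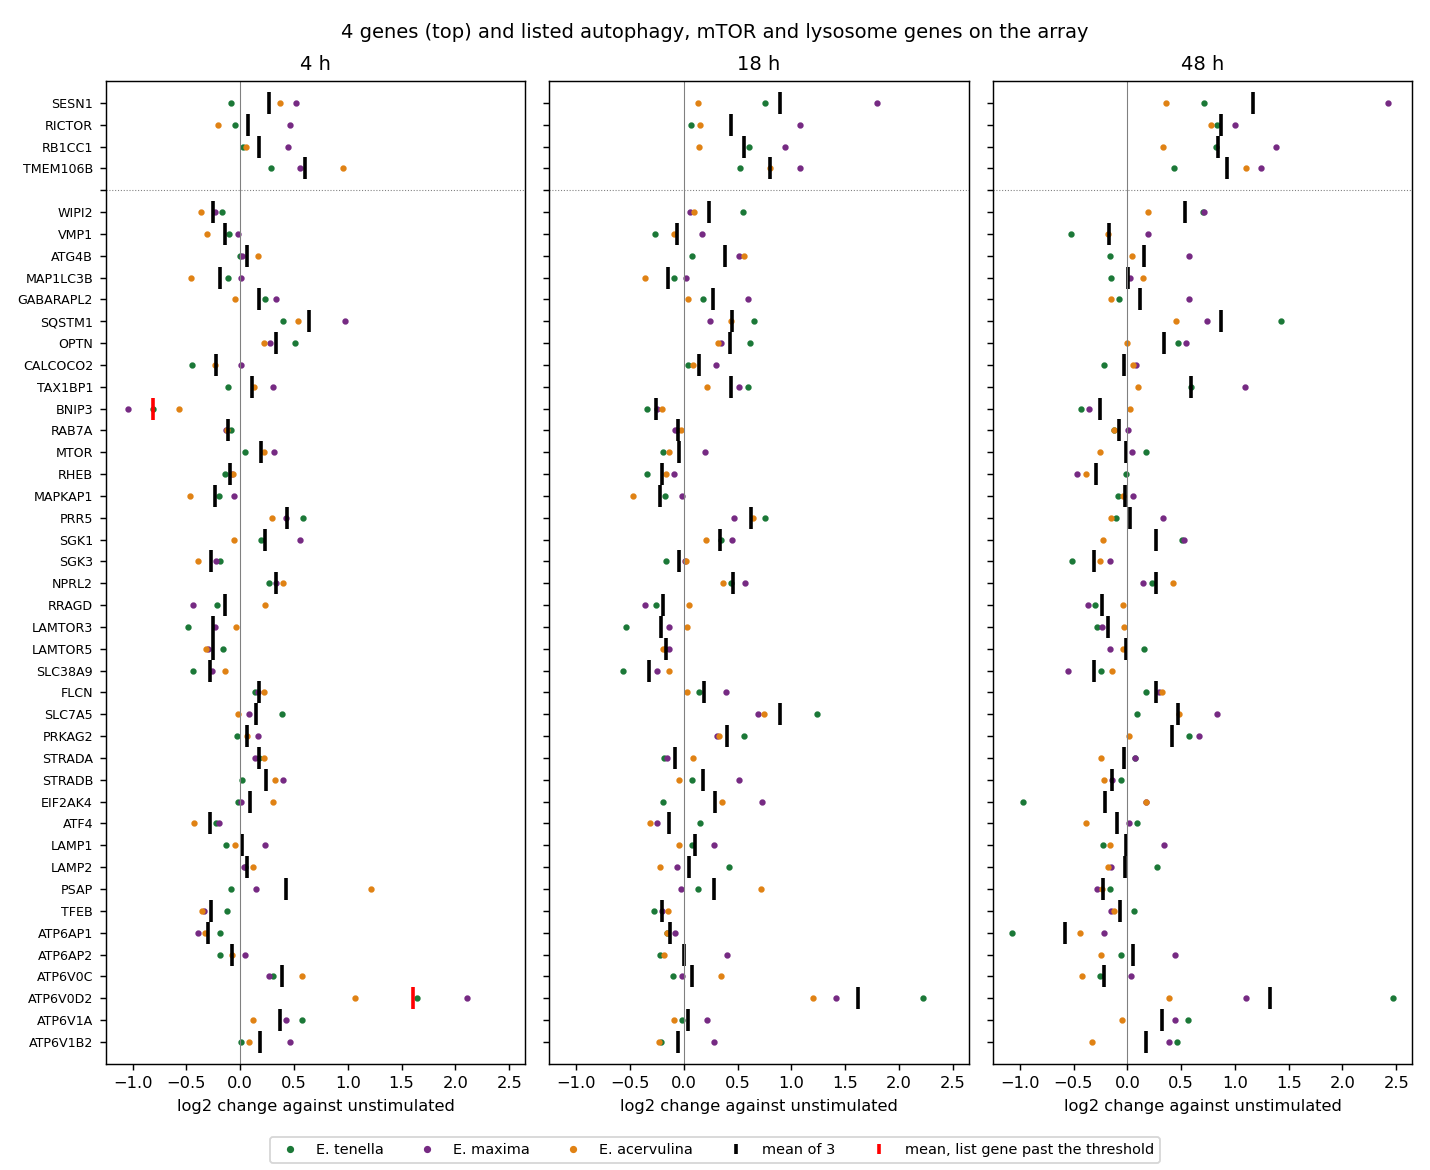
Log2 change against unstimulated RNA (horizontal axis) of the 4 genes, above the dotted line, and of the 39 other genes of the lists, in a panel each for 4, 18 and 48 h, with a dot for each species and a bar for the mean. At 48 h the 4 genes have all their dots right of 0, and they were chosen by values at that time. The list genes lie on both sides of 0. Red marks the calls, BNIP3 and ATP6V0D2 at 4 h.

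The 4 genes were compared with all other named features over their 12 levels. Levels of one loop share arrays, and Pearson's r is given as a description. SESN1 and RB1CC1 were the most alike pair of the 4, with r = 0.95, and RICTOR with TMEM106B the least, with r = 0.67. By r, RB1CC1 ranked 4 among the candidates for SESN1, and TMEM106B ranked 146 for RICTOR. The 12 levels include those at 48 h and in unstimulated cells, by which the 4 genes were chosen. Nothing is therefore read from likeness among the 4. Of 2237 candidates the features most like SESN1 were SMCHD1, a chromatin protein gene, with r = 0.95, KIDINS220, a neuronal signalling scaffold gene, with r = 0.95, and FRMD4B with r = 0.95. FRMD4B changed at 48 h by 1.15 with E. tenella, 2.64 with E. maxima and 0.24 with E. acervulina, beside 0.72, 2.43 and 0.36 for SESN1.

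The features most like RB1CC1 were KIDINS220 with r = 0.96, MED15, a Mediator subunit gene, with r = 0.95, and SESN1. KIDINS220 changed at 48 h by 0.43 with E. tenella, 0.84 with E. maxima and 0.32 with E. acervulina. RICTOR was most like C11orf49 with r = 0.96, MYNN, a zinc finger gene, with r = 0.93, and ABCC1, a drug and glutathione conjugate transporter gene, with r = 0.91. ABCC1 shared the late timing, at 0.66, 1.02 and 0.53 at 48 h beside -0.05, 0.69 and -0.14 at 18 h in the same species order. TMEM106B was most like IQGAP3 with r = 0.96, MLLT10 with r = 0.96 and the interferon regulatory factor gene IRF2 with r = 0.93. MLLT10 averaged 0.61 ± 0.11 at 4 h and 0.81 ± 0.20 at 48 h, early like TMEM106B, and IRF2 reached 0.24 ± 0.20 at 48 h. All these features were picked for likeness over the same levels, so a shared timing follows from the choice.

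Over the whole series, an array had values for 12199 to 13938 spots, and the array medians lay between -0.04 and 0.12. Of 9 macrophage marker genes all were measured, but log ratios carry no absolute level, so the cell type could not be checked from them. At 4 h the lysozyme gene LYZ and the receptor gene TLR2A fell, at -0.93 ± 0.15 and -0.81 ± 0.71 (limma adjusted p = 0.010 and 0.042), 2 of the 9 macrophage markers in a contrast where 5.89% of all features fell. Neither passed without E. maxima (adjusted p = 0.12 for LYZ and 0.31 for TLR2A by limma) or without E. acervulina (0.13 for both). In those fits 1 and 0 of all features passed at 4 h, so they say nothing particular to these markers. With the unstimulated RNA as 1 sample neither passed, but that fit has a single unstimulated level and nothing is read from it. TLR2A also missed the threshold without E. tenella (0.22), with scaled arrays (0.066) and with features admitted at 3 of 4 arrays (0.068). The phagocyte oxidase gene CYBB and the receptor gene TLR2A were the macrophage markers that fell at 48 h, at -0.89 ± 0.61 and -1.35 ± 0.34 (limma adjusted p = 0.039 and 0.025), in a contrast where 1.86% of all features fell. Without E. maxima neither passed (adjusted p = 0.33 for CYBB and 0.24 for TLR2A by limma), nor without E. tenella (0.17 and 0.093). In those fits 0 and 1 of all features passed at 48 h, so they say nothing particular to these markers. Neither passed with the unstimulated RNA as 1 sample, from which nothing is read here either. CYBB also missed the threshold without E. acervulina (0.064), with centred arrays (0.053) and with features admitted at 3 of 4 arrays (0.073). Without E. acervulina 2 of all features passed at 48 h, TLR2A among them (limma adjusted p = 0.028). The median of the 9 was 0.02 at 4 h, where 5 of 9 were positive, so the list as a whole did not fall there. It was -0.35 at 48 h, and 2 of 9 were positive. Of 7 measured markers of T cells, B cells, erythroid cells and epithelium none passed at 4, 18 or 48 h by limma, with at most 2 at an unadjusted p under 0.05 at a time. Of all features 10.4%, 1.62% and 3.59% passed at these times, and 29.2%, 26.7% and 25.6% had an unadjusted p under 0.05. With 7 markers, no difference between cell types is read from these counts. The B cell marker BLNK was matched by synonym to a feature named SH2D6, which may be another gene. The part of the macrophage marker shifts in the levels of the 4 genes was not tested.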

How the data were processed

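The table analysed holds a log2 ratio per spot and array, as deposited by the authors. The log base, the background correction, the normalization and the numerator dye are not stated in the labels or the table. Base 2 and Alexa555 over Alexa647 were assumed. Spot intensities were not used here, so signal over background is unknown. Spots of one symbol were averaged and other spots were kept singly. Features measured on every one of the 12 arrays numbered 3700, of which 2238 were named. Levels came from loop least squares and were tested with limma 3.58.1 in R 4.3.3, with time as the factor and species as the block, and adjusted by the Benjamini-Hochberg method over all features at 0.05. Whether cultures were started separately is not in the labels, so the p-values rest on a spread between samples that may be technical, and a single shared unstimulated RNA would make those against it too small.

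The 4 genes and the lists were chosen with earlier results of these data known. The text names the 4 genes, list genes past the threshold (at most 10 per time), the 3 features most correlated with each of the 4 over 12 levels, marker genes past the threshold, and list genes below it, picked after their values were seen. Symbols came from the platform annotation, matched to current chicken records by gene ID. The limma fit was also run on simulated levels drawn independently for each RNA. Arrays, dyes and a shared unstimulated RNA were not simulated, so that run does not check the loop estimates. Alternatives covered array centring and scaling, spot averaging, missing values, the species block, the unstimulated RNA and each species left out. A planned promoter motif search was not run.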

Additional observations from a re-analysis of the deposited data

How the results depend on the processing

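The changes of the 4 genes against unstimulated RNA were recomputed in 92 alternatives. In 48 of them, a species left out or the unstimulated RNA as 1 sample, a mean over 3 species could not move by more than its SD, so they say nothing on stability. In the other 44 each value stayed within 1 SD over species, an SD that is wide for SESN1. The sign turned in 2 of the 92, both for RICTOR at 4 h, at -0.12 without E. maxima and -0.04 on the direct arrays alone. At 48 h, leaving out each species gave 0.54 to 1.57 for SESN1, 0.81 to 0.92 for RICTOR, 0.58 to 1.10 for RB1CC1 and 0.77 to 1.17 for TMEM106B. For 18 h against 4 h none of 36 alternatives brought a call for the 4 genes, nor did the original fit. With the unstimulated RNA as 1 sample, with a species left out and on the direct arrays alone, 0 of all features were called. Those alternatives therefore say nothing particular to the 4 genes.

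Counts over all features moved widely. The 385 features past the threshold at 4 h, 60 at 18 h, 133 at 48 h and 1 for 18 h against 4 h became 0, 0, 0 and 0 with the unstimulated RNA as 1 sample, in a fit with fewer degrees of freedom. That fit also has a single unstimulated level without a replicate, so for a given residual spread each change against it has a larger standard error. Leaving out each species gave 0 to 76, 0 to 1, 0 to 2 and 0. Fits without the species as replicate block gave 871, 660, 612 and 99 features. The levels of each loop are centred on 0, so leaving out the block changes no estimate and only adds degrees of freedom. For SESN1 at 18 h against 4 h the change stayed at 0.63 while its standard error went from 0.37 to 0.34. The counts without the block therefore rest on too many degrees of freedom. The species is the only label that pairs the RNAs of a loop. Admitting features with 3 of 4 arrays per loop gave 5 at 18 h, 37 at 48 h and 0 for 18 h against 4 h. Scaling gave 38 at 18 h and 26 for 18 h against 4 h, and centring 3 for 18 h against 4 h. Centring turned the split into 231 higher and 176 lower at 4 h, beside 167 and 218, and into 76 and 47 at 48 h, beside 64 and 69. The species count of 139 became 0 with the interaction term, and the count for 18 h against 4 h became 0 on the 3 arrays of those RNAs alone, both alternatives added after the data were seen. The cause of the remaining shifts was not tested. With 3 cultures a time and unknown spot intensities, changes within the 95% intervals given for 18 h against 4 h could be missed. Those intervals are for a single gene and are not adjusted over all features. Larger changes could therefore also miss the threshold used.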
